A study of Mus musculus with 4 samples.

Results

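CD8 T cells of the cortex were examined in a single-cell RNA survey of brain immune cells from mice that model amyloid deposition. A cell counted as a CD8 T cell when the authors had placed it in their class of T and NK cells, when it held at least 1 UMI of Cd8a or Cd8b1 (the 2 chains of the CD8 coreceptor) and at least 1 UMI of Cd3d, Cd3e or Cd3g (invariant chains of the T cell receptor complex), and when it held no UMI of Cd4. A UMI is a molecular tag that marks 1 captured RNA molecule. The rule found 2369 CD8 T cells among 15451 cells, which was 72.6% of the 3265 cells of the class. Of the other cells in the class, 199 passed the mirrored rule for CD4 T cells and 39 passed a rule for NK cells, which asked for Ncr1 or Klrb1c and for no Cd3, CD8 or Cd4 UMI.

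Each of 4 libraries pooled 2 cortices of mice aged 18 months, and the cells were sorted for CD45 after enzymatic and mechanical dissociation and a Percoll gradient. The AD libraries (AD 1 and AD 2) came from APP/PS1 mice, which carry transgenes for mutant human amyloid precursor protein and presenilin 1. The ADAM libraries (ADAM 1 and ADAM 2) came from APP/PS1 Axl-/- Mertk-/- mice, which carry the same transgenes and lack the TAM receptors Axl and Mertk, the third receptor of the family, Tyro3, not being named as targeted. All 4 libraries thus carry APP/PS1, and no library came from mice without it. For the genotype comparison, a p-value here measures the spread between pools of 2 cortices, with 2 pools per genotype. For CD8 against CD4 or NK cells, it is set against the spread over the 4 libraries of the difference within a library. The edgeR test used for both draws each gene's spread in part from all tested genes. Its p-values, also very small ones, therefore do not measure the spread of that gene alone. An exact permutation test of 2 against 2 libraries cannot give a two-sided p below 0.33.

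CD8 T cells recognise peptides held by MHC class I molecules and kill by releasing perforin and granzymes, or through Fas ligand. After an infection or other stimulus some of them stay in the tissue as resident memory cells, which are marked by CD69 and often by CD103 (Itgae) and CXCR6. Such cells are known from the brains of aged mice and of mice with amyloid plaques, where they lie among microglia.

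AD 1 and AD 2 gave 631 and 680 CD8 T cells, and ADAM 1 and ADAM 2 gave 476 and 582, with median depths of 3084, 3688, 3641 and 3471 UMIs per cell in that order. Where 4 values follow each other below, they stand in the same order. The UMIs summed over the CD8 T cells ranged from 1905408 to 2660086 per library. Levels are counts per 1000000 (CPM), a gene's UMIs scaled to this sum. Cd8b1 stood at 1010 ± 36.0 CPM and Cd8a at 761 ± 31.8 CPM (mean ± SD, n = 4 libraries), and 1925 of the 2369 cells (81.3%) held both. Cells just inside the rule, with exactly 1 CD8 UMI, numbered 145, and Ccl5 was found in 96.6% of them against 97.6% of all members. Just outside, 606 cells had Cd3 but neither CD8 nor Cd4. Ccl5 was found in 58.4% of those cells, Cd40lg in 18.0% (0.72% in the members) and Tcrg-C1 in 16.8% (3.12%), so they were a mixed set. A further 196 cells met the gene rule but were marked as doublets by the authors and stayed out, as did 43 cells of their proliferating class. Of the members, 5 had a cell barcode that also occurred in another library, and no barcode was shared by CD8 T cells of 2 libraries.

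Markers of other lymphocytes were at these levels. NK markers summed to 29.0 to 78.2 CPM in the CD8 T cells, CD4 T cell markers (with Cd4 at 0 by the rule) to 2.26 to 15.7, and B cell markers to 24.9 to 55.1. The list for gamma delta and MAIT T cells was higher, at 266, 512, 214 and 291 CPM against 30.5 to 82.9 CPM in CD4 T cells. Most of it was Tcrg-C2, at 245, 482, 189 and 280 CPM, while Trdc, the delta constant segment that gamma delta T cells need, was at 0.921 to 8.92 CPM. Microglia RNA was present: all 12 microglia markers were above 0 in every library, and their sum was 2709 and 2654 CPM in the AD libraries and 4854 and 3476 CPM in the ADAM libraries. These sums were 2.30%, 2.30%, 4.28% and 3.43% of the sum in the microglia of the same library, so both ADAM libraries were above both AD libraries. Neutrophil markers summed to 1808 in ADAM 2 and to 11.9 to 32.7 in the other libraries, and ADAM 2 also held 580 neutrophils against 11 to 136.

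Ccl5, a chemokine stored by memory and effector T cells, was among the most abundant genes of the CD8 T cells (ribosomal, mitochondrial and predicted genes and Malat1 set aside), with 9606, 14172, 10001 and 9650 CPM. Its mean of 10857 CPM was close to that of Tmsb4x, a gene of the actin cytoskeleton (10793 CPM), which was above Ccl5 in every library except AD 2. Its level in microglia averaged 39.7. At an equal depth of 1500 UMIs per cell, which left out 24, 16, 11 and 13 shallower CD8 T cells, Ccl5 was found in 92.6% to 98.0% of CD8 T cells and in 3.53% to 4.68% of microglia. Nkg7, a granule protein of cytotoxic lymphocytes, stood at 2389, 2700, 2261 and 2164. Perforin (Prf1) was at 96.7 to 118 and Fas ligand (Fasl) at 144 to 161, and both held within a narrow range.

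The granzymes were less even. Gzmk, which marks effector memory CD8 T cells, was at 359, 429, 361 and 299 CPM. It was found in 41.02%, 46.8%, 40.0% and 35.1% of cells at 1500 UMIs, against at most 0.134% of microglia. Gzmb, the granzyme best known for starting apoptosis in the target, was at 327, 184, 138 and 376, so the 2 libraries of each genotype differed more than the genotypes. Gzma was at 462, 339, 98.7 and 465, with ADAM 1 lowest. NK cells showed the same low library, with Gzma at 14692, 14169, 738 and 4888. Gzmm ran the other way, at 67.7 in ADAM 1 and 13.8 to 18.0 elsewhere, and Gzmc was at 0 in all libraries.

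Of the genes of tissue residency, Cxcr6 was the steadiest of those described here. Cxcr6, the receptor for CXCL16, stood at 613, 582, 644 and 607 CPM and was found in 54.8% to 56.6% of cells at 1500 UMIs. Cd69, which holds back exit from tissue by opposing S1PR1, was at 359, 350, 350 and 502, with ADAM 2 highest. Rgs1, a brake on chemokine receptor signals, was at 323 to 440, and Hopx was at 186 to 266. Itgae, the CD103 chain that binds E-cadherin, was at 23.4, 31.2, 35.7 and 45.6 and was found in only 2.97% to 4.92% of cells. Zfp683, which encodes HOBIT, was at 0.525 to 4.77. Of the homing receptors, the chemokine receptor Cxcr3 stood at 162 to 223, and Itga4, part of the VLA-4 integrin that binds VCAM-1, at 289 to 423.

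Among secreted factors other than Ccl5, Xcl1, which attracts XCR1-positive dendritic cells, was at 511, 292, 367 and 522 CPM. Ccl4 was at 236, 249, 268 and 460, but microglia also make it: at 1500 UMIs Ccl4 was found in 27.4% to 50.5% of microglia and in 18.1% to 29.5% of CD8 T cells. Ifng was at 49.1, 68.0, 37.8 and 72.7, and was found in 5.77% to 8.43% of cells. Tnf was at 7.90 to 21.5. Among genes of chronic stimulation, Tox, a transcription factor of persistently stimulated T cells, was at 193, 192, 115 and 160. Pdcd1, which encodes PD-1, was at 61.5, 74.8, 98.1 and 52.0 and was found in 7.73% to 15.1% of CD8 T cells and in 3.01% to 5.81% of microglia. Havcr2 was at 11.3 to 14.2 and Tigit at 2.10 to 5.52. For Lag3, at 47.2 to 68.8, the share of cells was 6.10% to 10.1% in CD8 T cells and 35.4% to 44.2% in microglia, so no expression in CD8 T cells was read from it.

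Of the genes of naive and recirculating cells, Ccr7, the lymph node homing receptor, was at 9.67 to 36.7 CPM, while Il7r, the IL-7 receptor chain, reached 203 to 381. The proliferation gene Mki67 was at 2.39 to 7.52.

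**Figure D1:**
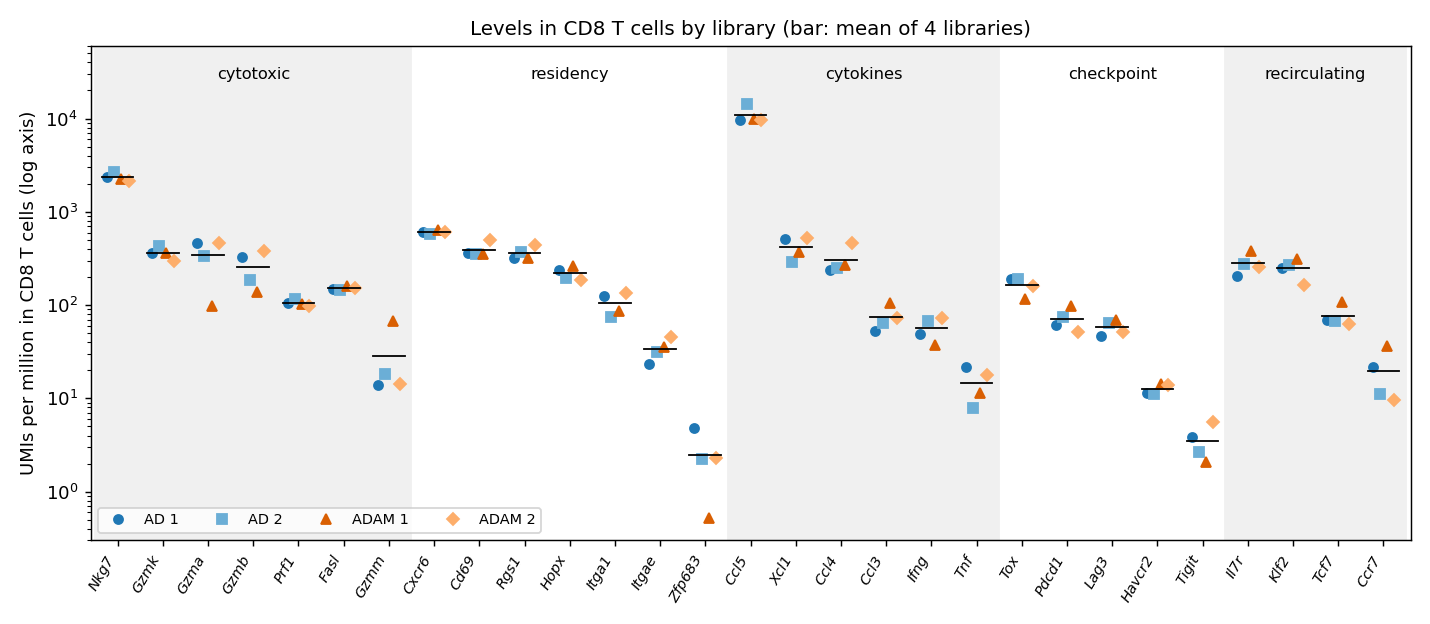
Levels in CD8 T cells, in CPM on a log axis, for genes grouped by role. Each point is 1 library and the bar is the mean of the 4 libraries. Ccl5 has the highest mean (10857), Zfp683 and Tigit the lowest levels, and ADAM 1 lies below the other libraries in Gzma and above them in Gzmm.

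Which of these genes met in the same cells was read at 1500 UMIs per cell, as a description within each library. Gzma and Gzmb shared cells. Gzma was found in 56, 59, 14 and 46 cells, and Gzmb was found in 53.6%, 35.6%, 35.7% and 71.7% of these against 12.7%, 16.2%, 12.6% and 18.4% of the rest. Klrd1, which encodes the NK receptor chain CD94, followed them, at 42.9% to 54.3% against 19.5% to 31.7%. Ly6c2, a surface antigen of memory and effector CD8 T cells, was found in 135, 120, 149 and 160 cells, of which Tox was found in 12.6%, 7.5%, 7.38% and 7.5% against 27.8%, 29.0%, 22.8% and 27.4% of the rest. Pdcd1 was found in 2.22%, 3.33%, 7.38% and 1.88% of the Ly6c2 cells against 10.6%, 13.6%, 18.7% and 10.0% of the rest, and Klf2, a transcription factor that sustains S1pr1, in 20.6% to 38.3% against 9.75% to 12.975%. Gzmb was more frequent in the Ly6c2 cells in every library except ADAM 1 (28.1%, 22.5%, 9.40% and 35.6% against 13.1%, 16.9%, 15.2% and 17.6%). In cells with Pdcd1, Tox was found in 29.5% to 38.5% against 15.4% to 23.8% of the rest. The Fano factor (variance over mean of the UMIs per cell at 1500 UMIs) was 15.004 to 22.9 for Ccl5 and 8.96 to 20.99 for Gzma. With each gene taken in its lowest library these were the highest of 2858 genes, whose median was 0.959, but in AD 2 Cxcl10 (23.5) and in ADAM 1 Ccl4 (19.8) were above both.

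Set against the CD4 T cells of the same libraries, the CD8 T cells were higher in Gzma, Gzmb, Gzmk and Gzmm, in the chemokines Ccl4, Ccl5 and Xcl1, in Ly6c2 and in 7 of 23 interferon-response genes, and lower in some receptor and signalling genes such as Icos and Cd28 and in S1pr1, Klf2 and Il7r. Of 7618 genes tested with edgeR's quasi-likelihood test, library being a term of the fit, 236 passed an adjusted p of 0.05 (3.1%), 132 higher and 104 lower in CD8 T cells, and these counts include genes of the cell rules. The median log2 difference over all tested genes was 0.045. The 199 CD4 T cells fell unevenly, at 124, 26, 33 and 16, and without AD 1 the count was 97. The count was 50 with DESeq2 and 82 with limma-voom. Microglia markers summed to 2298 to 4012 CPM in the CD4 T cells, a range close to that of the CD8 T cells, and their part in these differences was not tested.

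Of 14 tested cytotoxic genes, 6 were higher in CD8 T cells and none was lower (1.73% and 1.37% of all genes), and the median log2 difference over the list was 0.74. Gzma led, with a log2 difference of 5.72 (SE 0.33, edgeR adjusted p = 9.83e-62) and levels of 2.60, 0, 8.90 and 49.7 CPM in the CD4 T cells. Gzmb was higher by 1.64 (SE 0.20), Gzmk by 1.44 (SE 0.17) and Gzmm by 2.07 (SE 0.65), all on the log2 scale. Gzmk ran at 83.2, 183, 169 and 282 in CD4 T cells, so that AD 1 held the lowest value of all and only ADAM 2 came near the CD8 levels. Nkg7 (0.86) and Ctsw (0.81), which encodes the lysosomal protease cathepsin W, also passed, whereas Prf1 and Fasl did not. Calls for Gzmm were lost when any library was left out, and the call for Nkg7 was lost without ADAM 2.

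Of 11 tested cytokine and chemokine genes, 3 were higher and none was lower, with a list median of 0.35. These were Ccl4 (1.81), Ccl5 (1.51, SE 0.11, edgeR adjusted p = 6.03e-20) and Xcl1 (1.03). Ccl5 stood at 5192, 7422, 2260 and 3316 in CD4 T cells, below the CD8 value in each library, and its call was lost without AD 1. Of 16 transcription factors, 3 were higher, namely Eomes (1.2) and Runx3 (0.68), which direct the cytotoxic programme, and Ikzf3 (1.09). Another 3 were lower: Zbtb7b (-1.61), which encodes the CD4 lineage factor ThPOK, Gata3 (-1.23) and Bhlhe40 (-0.96). The list median was -0.26.

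Tnfrsf4, which encodes the costimulatory receptor OX40, was lower in CD8 T cells by a log2 difference of 4.86 (adjusted p from edgeR 2.91e-58, SE 0.29), at 8.11, 5.26, 7.35 and 4.60 CPM against 421, 142, 133 and 133. Ctla4 (-2.13), Icos (-2.10), Maf (-2.16) and the CD5 gene (-1.60) were lower as well. In the list of receptor complex and signalling genes, 5 of 20 were lower and none was higher (Cd247, Cd5, Cd6, Cd28 and Icos, list median -0.12). Of 10 tested genes of naive and recirculating cells, 3 were lower (S1pr1 at -1.25, Klf2 at -1.04 and Il7r at -0.84, list median -0.32). Il7r stood at 416 to 661 in CD4 T cells against 203 to 381, without overlap, while Klf2 in ADAM 2 was at 166 in CD4 and 164 in CD8 T cells. Of 18 immediate early genes, which cell preparation is known to induce, 6 were lower and none was higher, with a list median of -0.38.

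Genes outside the lists extended the contrast. Ly6c2 was higher by 2.78 (SE 0.24), at 414, 294, 602 and 541 against 36.4, 153, 116 and 16.6 CPM. Tcrg-C2, a constant segment of the T cell receptor gamma chain with near-identical copies, was higher by 3.45 (SE 0.26), at 245, 482, 189 and 280 against 23.4, 30.5, 8.90 and 82.9, and Trgv2 by 3.81. Cd160, an immunoglobulin superfamily receptor, was higher by 3.88 (SE 0.43). Pdgfb and Lmo1 had no UMI in any CD4 T cell. Against a floor of 3 UMIs over all CD4 T cells they were at least 4.06-fold and at least 3.34-fold higher, although the call for Pdgfb was lost without AD 1 and that for Lmo1 without any of the libraries. Capg, an actin-capping gene (-2.49), and Podnl1 (-2.41) were among the largest differences in the other direction.

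**Figure D2:**
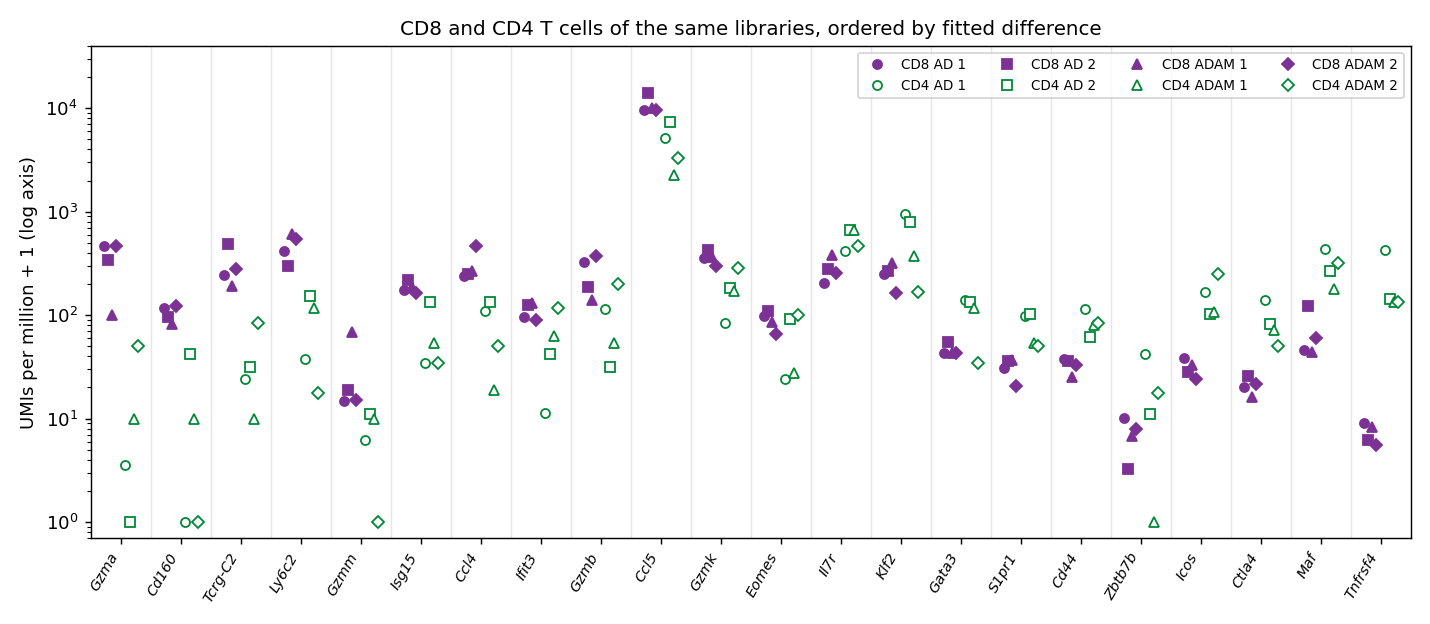
CD8 T cells (filled) and CD4 T cells (open) of the same 4 libraries, in CPM plus 1 on a log axis, for genes called between them, ordered by the fitted difference from Gzma to Tnfrsf4. The points of the 2 cell types lie apart at both ends and overlap for genes between, such as Eomes, Ifit3, Klf2 and Gata3.

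Interferon-response genes gave the most calls in the higher direction of the lists described here, though from a longer list than the cytotoxic genes. Of 23 tested members, 7 were higher and 1 was lower, 19 had a positive estimate, and the list median was 0.65. Isg15, a ubiquitin-like protein that is attached to other proteins during the response, was at 172, 218, 186 and 163 CPM in CD8 T cells against 33.8, 132, 53.4 and 33.2 in CD4 T cells. Its log2 difference was 1.88 (SE 0.24, edgeR adjusted p = 9.29e-13). Ifit3 (1.67) and Ifit1 (1.41), which bind foreign RNA, Usp18 (2.49), which removes ISG15 and damps receptor signalling, Bst2 (0.73), Isg20 (0.83) and Rtp4 (1.02) were higher too. The exception was Ly6a (-0.46), at 611 to 702 against 747 to 1247. Leaving out AD 1 ended the calls for 6 of the 7 higher genes, and Isg15 kept its call without each library in turn.

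Cxcl10, which encodes the ligand of CXCR3 and is induced by interferon, had 976 UMIs in the 2369 CD8 T cells and 1 in the 199 CD4 T cells. The ratio of the summed levels was 72.5 (95% counting interval 12.975 to 2865). This interval and the next treat each UMI as independent. The transcripts lay in few cells, as described below, so both intervals are too narrow. Cxcl10 stood at 159 and 119 CPM in the AD libraries and at 90.3 and 70.4 CPM in the ADAM libraries, above its level in microglia in every library (18.8, 23.7, 41.7 and 43.9). Rsad2, the antiviral enzyme viperin, was at 22.9 to 33.1, with 2 UMIs in all CD4 T cells (ratio 9.80, interval 2.69 to 81.3), and lost its call without AD 1.

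These transcripts were packed into few cells. UMIs of Isg15, Ifit1, Ifit3, Usp18 and Rsad2, 5 genes chosen after their values were seen, were summed in cells thinned to 1500 UMIs. The sum was 0 in 82.04%, 77.3%, 78.7% and 76.8% of CD8 T cells, and reached 29, 25, 19 and 21 in the highest cell. At least 5 UMIs were found in 25 of 607 cells of AD 1 (4.12%, exact 95% binomial interval 2.68% to 6.02%) and in 31 of 664 cells of AD 2 (4.67%, 3.19% to 6.56%). The same held for 27 of 465 cells of ADAM 1 (5.81%, 3.86% to 8.34%) and 17 of 569 cells of ADAM 2 (2.99%, 1.75% to 4.74%). The 4 intervals overlap, and they cover counting error only. Whether the cells with at least 5 UMIs form a separate type was not tested. Just under that limit, 9, 19, 11 and 14 cells had 3 or 4 UMIs. Just over it, 8, 5, 12 and 2 cells had 5 or 6. Among microglia at the same depth the share was 0.335% to 0.897%, and 1 of 24 CD4 T cells of AD 2 and 1 of 32 of ADAM 1 reached it, with none of 121 in AD 1 and none of 16 in ADAM 2.

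The interferon-high cells held most of the Cxcl10 UMIs: 97.6%, 87.1%, 79.4% and 90.6% of them in the 4 libraries. Cxcl10 was found in 48.0%, 38.7%, 51.9% and 41.2% of these cells and in 0.687%, 1.58%, 0.685% and 0.725% of the other CD8 T cells. Zbp1, a sensor of Z-form nucleic acids that the sum did not use, was found in 52.0%, 54.8%, 48.1% and 64.7% against 7.56%, 7.58%, 10.7% and 9.42%. Slfn5 was found in 24.0% to 47.1% against 2.23% to 3.80%. Gzmb was found in 28.0%, 35.5%, 25.9% and 41.2% against 16.0%, 17.1%, 12.6% and 22.1%, and Cd69 in 60%, 54.8%, 55.6% and 64.7% against 34.9%, 30.3%, 32.2% and 42.8%. Il7r was less frequent in each library (8.0%, 22.6%, 14.8% and 11.8% against 21.8%, 26.2%, 36.1% and 25.4%). These shares rest on 17 to 31 interferon-high cells per library. Gzmk was found in 56.0% against 40.4% in AD 1 and in 48.4%, 40.7% and 35.3% against 46.8%, 40.0% and 35.1% in the other libraries, and Ccl5 in 96.0% to 100% against 92.4% to 97.9%. The median count of microglia marker UMIs was 2, 4, 5 and 4 in the interferon-high cells and 2, 3, 5 and 4 in the others, and monocyte and B cell markers had a median of 0 in both.

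**Figure D3:**
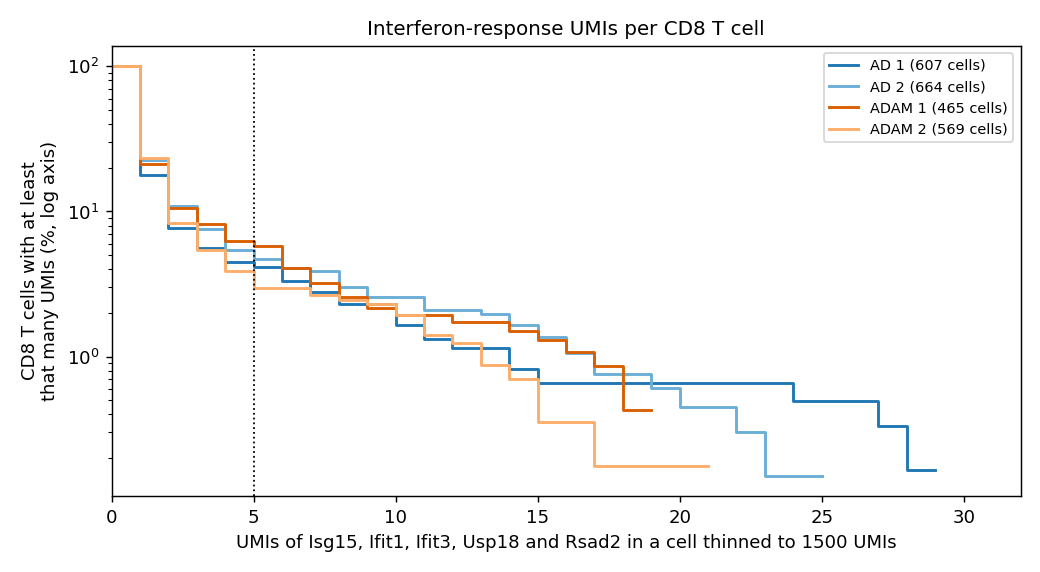
Share of CD8 T cells, in percent on a log axis, with at least the number of interferon-response UMIs on the x axis (Isg15, Ifit1, Ifit3, Usp18 and Rsad2 summed in cells thinned to 1500 UMIs), with 1 line per library. The dotted line marks 5 UMIs, where the libraries lie between 2.99% and 5.81%, and the tails reach 19 to 29 UMIs.

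The promoters of Isg15, Ifit1, Ifit3, Rsad2 and Cxcl10 are shown because their transcripts appeared in the same few cells. All but Cxcl10 were in the sum that picked those cells, so for them this follows in part from the choice. Each runs from 250 bases before to 50 bases after the start site in the RefSeq annotation of GRCm38.p6, is read along the gene's own strand, and has in capitals each match to the interferon-stimulated response element core, GAAANNGAAA, or to its reverse complement, TTTCNNTTTC. Usp18 and Zbp1 had no entry. Irf7 and Bst2, also more frequent in those cells in every library, had entries that are not printed, with 0 matches for Irf7 and 2 for Bst2. Isg15 lies at chr4:156200769-156201068 on the minus strand and has 3 matches that overlap, Ifit1 at chr19:34640639-34640938 on the plus strand has 2, and Ifit3 at chr19:34583279-34583578 on the plus strand has 2. Rsad2 lies at chr12:26456403-26456702 and Cxcl10 at chr5:92348840-92349139, both on the minus strand with 1 match each, at -120 and -213 from the start site.
Isg15: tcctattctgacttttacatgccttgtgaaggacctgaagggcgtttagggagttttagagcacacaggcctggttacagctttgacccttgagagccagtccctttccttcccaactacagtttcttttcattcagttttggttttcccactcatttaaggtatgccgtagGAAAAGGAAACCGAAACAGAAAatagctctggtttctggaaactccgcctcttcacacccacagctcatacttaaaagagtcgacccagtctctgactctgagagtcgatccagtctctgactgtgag
Ifit1: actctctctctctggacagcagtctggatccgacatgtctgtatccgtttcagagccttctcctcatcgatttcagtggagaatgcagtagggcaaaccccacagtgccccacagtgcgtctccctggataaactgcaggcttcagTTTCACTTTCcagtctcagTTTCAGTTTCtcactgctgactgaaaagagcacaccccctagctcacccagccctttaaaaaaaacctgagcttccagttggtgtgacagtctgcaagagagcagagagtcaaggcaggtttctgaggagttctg
Ifit3: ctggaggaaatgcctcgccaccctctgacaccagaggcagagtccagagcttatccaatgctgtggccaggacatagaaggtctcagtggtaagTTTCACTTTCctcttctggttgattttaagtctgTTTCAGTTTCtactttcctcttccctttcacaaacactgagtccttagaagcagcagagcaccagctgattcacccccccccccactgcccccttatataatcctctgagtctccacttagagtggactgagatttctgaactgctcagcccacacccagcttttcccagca
Rsad2: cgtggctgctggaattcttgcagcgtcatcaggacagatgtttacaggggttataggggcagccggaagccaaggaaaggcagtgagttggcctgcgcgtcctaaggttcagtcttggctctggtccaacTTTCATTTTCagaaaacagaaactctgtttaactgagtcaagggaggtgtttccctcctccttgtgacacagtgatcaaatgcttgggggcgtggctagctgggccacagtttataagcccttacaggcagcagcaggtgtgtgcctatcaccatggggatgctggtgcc
Cxcl10: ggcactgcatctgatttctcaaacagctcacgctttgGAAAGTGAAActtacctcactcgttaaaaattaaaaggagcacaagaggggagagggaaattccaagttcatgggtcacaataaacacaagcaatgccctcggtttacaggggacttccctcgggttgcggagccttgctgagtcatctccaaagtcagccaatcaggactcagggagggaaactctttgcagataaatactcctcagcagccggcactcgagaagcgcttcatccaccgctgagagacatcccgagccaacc

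Of the 23 interferon-response genes, 16 had a promoter in the table and 9 of these (56.3%) held the motif, against 1079 of all 27025 promoters (3.99%). Among genes tested between CD8 and CD4 T cells, the motif was found in 262 of 6032 promoters (4.34%). It was found in 14 of 91 promoters of genes higher in CD8 T cells (15.4%) and in 1 of 80 promoters of genes lower there (1.25%). The interferon genes were among the higher genes, so these shares are not independent of the list, and a match is a description of the letters and not evidence of binding.

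Against the 39 NK cells, 340 of 6917 tested genes passed (4.92%), 249 higher (3.6%) and 91 lower (1.32%) in CD8 T cells, with a median log2 difference of 0.315 over all tested genes. With RLE scaling in place of TMM the median moved by -0.193, and 183 genes were higher and 125 lower. The split between higher and lower genes therefore depends on the scaling. NK cells numbered 9, 6, 14 and 10 per library, and their summed UMIs ranged from 20326 to 53805.

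Cytotoxic genes differed in both directions. Gzmk had no UMI in any NK cell and was at least 18.0-fold higher in CD8 T cells against a floor of 3 UMIs over all NK cells. Gzma (log2 -3.76, SE 0.21), Gzmb (-2.20) and Prf1 (-2.41) were lower in CD8 T cells, while Nkg7 (0.07, SE 0.18, edgeR adjusted p = 0.936) and Ccl5 (-0.12, SE 0.17, edgeR adjusted p = 0.858) missed the threshold. In all, 1 of 14 tested cytotoxic genes was higher and 5 were lower. Of the 23 interferon-response genes, 13 were higher and none was lower, with a list median of 2.67. Ifi27l2a, Ifit3 and Ifit1 had no UMI in any NK cell, and against the same floor they were 31.6-fold, 5.42-fold and 3.76-fold higher. The floor treats each UMI as independent. Ifit3 and Ifit1 were concentrated in few CD8 T cells and the NK cells numbered 39, so these 2 folds are not firm lower bounds. Among residency genes, Cd69 (3.07) and Cxcr6 (2.63) were higher and the other 11 tested did not pass.

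Of the list of inhibitory and activating NK receptors, and leaving out Klrb1c, which the NK rule used, 10 of 11 tested genes were lower and none was higher, with a median log2 difference of -3.61. Klra9, of the Ly49 family, whose members are alike enough to share reads, was at 0 to 9.77 CPM in CD8 T cells against 149 to 1119 in NK cells (-6.98, SE 0.39). Fcer1g, an adaptor of some other NK receptors, was lower by 4.39. Of 20 genes of the T cell receptor complex and its signalling, 14 were higher, a list that lies close to the Cd3 genes that set the cells apart.

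T cell receptor V genes were sparse in these 3′ libraries but differed from library to library. Any of 30 alpha V genes (Trav) was found in 63 (9.98%), 51 (7.5%), 67 (14.1%) and 52 (8.94%) CD8 T cells, and any of 16 beta V genes (Trbv) in 46, 48, 22 and 41. Trav13d-1 was found in 33 of the 51 cells of AD 2 with a Trav UMI (64.7%, exact 95% binomial interval 50.1% to 77.6%) and in no CD8 T cell of the other 3 libraries. Trav4-4-dv10 was found in 34 of the 67 cells of ADAM 1 (50.7%, 38.2% to 63.2%) and in 1 CD8 T cell of AD 1. The leading genes elsewhere were Trav16n in AD 1 (13 of 63, 20.6%) and Trav16 in ADAM 2 (11 of 52, 21.2%). Of the beta genes, Trbv19 led in AD 2 (17 of 48, 35.4%, 22.2% to 50.5%), Trbv3 in ADAM 2 (11 of 41, 26.8%) and Trbv2 in AD 1 (10 of 46) and ADAM 1 (5 of 22). Members of a V family are near-identical in sequence, so reads may have been split between them, and the receptor sequence of a cell was not measured.

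The beta constant segment Trbc1 was uneven between the cells with the leading Trav gene and the rest. All 33 Trav13d-1 cells of AD 2 held Trbc1, against 451 of the other 647 CD8 T cells of AD 2 (69.7%). Of the 34 Trav4-4-dv10 cells of ADAM 1, only 2 held Trbc1 (5.88%), against 249 of 442 (56.3%). Trbc1 was found in 3 of the 13 Trav16n cells of AD 1 (23.1%, against 45.5%) and in 9 of the 11 Trav16 cells of ADAM 2 (81.8%, against 51.8%). Trbc2 was found in 90.9% to 100% of the cells with each of these 4 genes, including 30 of the 33 Trav13d-1 cells, so it set none of them apart. The Trav13d-1 cells also held Tcrg-C2 in 31 of 33 (93.9%, against 57.2%), Maf in 18 (54.5%, against 24.1%) and Ly6c2 in 2 (6.06%, against 24.0%). In AD 1, Gzmb was found in 11 of the 13 Trav16n cells (84.6%, against 21.8%) and Ly6c2 in 9 (69.2%, against 30.3%), on a small number. These shares are from cells at their full depth. Cells of 1 pool are not replicates, so they describe these pools and not the genotypes.

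**Figure D4:**
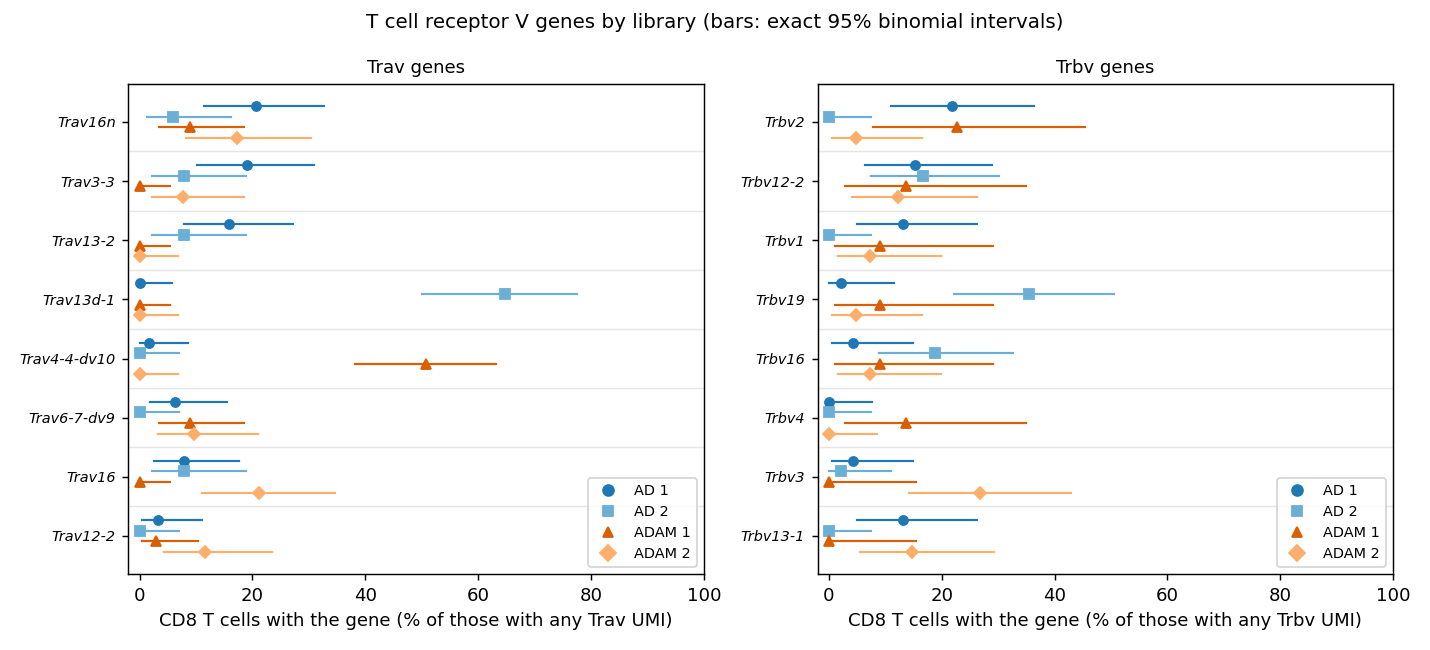
CD8 T cells with each V gene, in percent of the CD8 T cells of that library with any Trav UMI (left) or any Trbv UMI (right), for the 3 most frequent genes of each library. Points are libraries and bars are exact 95% binomial intervals. Trav13d-1 in AD 2 (64.7%) and Trav4-4-dv10 in ADAM 1 (50.7%) lie far above the other libraries.

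Between genotypes, the question was whether loss of Axl and Mertk went with a change in the CD8 T cells. Their share of all T and NK cells was 61.7% and 82.1% in the AD libraries and 70.2% and 79.0% in the ADAM libraries, or 71.9% ± 14.4 in AD and 74.6% ± 6.20 in ADAM (SD, n = 2 each). The ADAM values lay between the AD values, and the exact two-sided permutation p was 1.0. As a share of all cells with a class, they made up 20.3%, 15.6%, 14.1% and 15.4% (17.9% ± 3.34 and 14.7% ± 0.944, exact permutation p = 0.33). Both AD values were above both ADAM values there, the AD 2 and ADAM 2 values nearly meeting, and the 580 neutrophils of ADAM 2 are in its denominator.

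Of 8954 genes tested with edgeR in the CD8 T cells, 9 passed (0.101%), 6 higher (0.067%) and 3 lower (0.0335%) in ADAM, and 411 had an unadjusted p below 0.05. The effector, residency, checkpoint, cytokine, homing and interferon-response lists held no called gene. Their median log2 differences were 0.06 for 14 cytotoxic genes, 0.17 for 13 residency genes, -0.13 for 12 checkpoint genes, -0.07 for homing receptors and 0.10 for 23 interferon-response genes, against 0.00 for all tested genes. Gzmk had a log2 estimate of -0.25 in ADAM over AD (SE 0.14, edgeR adjusted p = 0.998) and Tox one of -0.47 (SE 0.16, edgeR adjusted p = 0.892). The estimate for Itgae was 0.57 (SE 0.21, edgeR adjusted p = 0.957), with both ADAM libraries above both AD libraries. At 1500 UMIs per cell, Gzmk was found in 43.9% ± 4.11 of AD and 37.6% ± 3.43 of ADAM CD8 T cells, Tox in 24.8% ± 0.544 and 19.8% ± 2.79, and Itgae in 3.21% ± 0.353 and 4.61% ± 0.438. Without thinning the shares were 66.1% ± 8.59 and 61.4% ± 4.03 for Gzmk, 42.8% ± 4.10 and 33.6% ± 2.60 for Tox, and 7.36% ± 1.45 and 10.6% ± 2.51 for Itgae. At 1500 UMIs each gave the smallest exact permutation p that 2 against 2 libraries allow, 0.33. At 1000 UMIs and without thinning, Tox and Itgae again gave an exact permutation p of 0.33, but Gzmk gave 0.67. Cxcr6 (55.7% ± 1.19 and 56.0% ± 0.783) and Ifng (7.10% ± 1.89 and 7.18% ± 1.03) differed by less than the spread between libraries.

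The 6 genes higher in ADAM were all higher in microglia than in CD8 T cells, in every library. Gatm, an enzyme of creatine synthesis, was at 3.34 and 3.01 CPM in the CD8 T cells of AD and at 36.2 and 23.5 in ADAM, a log2 difference of 3.22 (adjusted p from edgeR 0.00826, SE 0.35). In microglia of the same libraries Gatm stood at 92.2, 116, 919 and 675, so the CD8 level was 3.62%, 2.59%, 3.94% and 3.48% of the microglia level. The microglia markers as a whole stood at 2.30% to 4.28%. Lyz2, lysozyme, was at 42.4 and 39.1 in AD and 124 and 110 in ADAM, a difference of 1.53 (adjusted p from edgeR 0.00428, SE 0.15), while in microglia it was at 2354, 1827, 1821 and 1902. The CD8 level of Lyz2 was 1.80%, 2.14%, 6.80% and 5.81% of the microglia level. Of the 4 others, Ctsl (1.03) encodes a lysosomal protease, C1qb (0.96) a chain of complement C1q and Tyrobp (0.89) the adaptor of TREM2 and of NK receptors, and Ifitm3 (1.53) restricts viral entry, all with an edgeR adjusted p of 0.0447. Ifitm3 was at 21.9, 14.3, 52.0 and 50.2 CPM in the CD8 T cells and at 98.4, 132, 179 and 216 in microglia, so its CD8 level was 22.3%, 10.8%, 29.0% and 23.2% of the microglia level. C1qb was at 174, 165, 360 and 297 in the CD8 T cells and at 8383, 8951, 9166 and 7897 in microglia. C1qa, with an estimate of 0.90, missed the threshold (edgeR adjusted p = 0.0588).

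The fit was repeated without every CD8 T cell with more than 15 microglia marker UMIs, a step chosen after the values were seen, which kept 582, 616, 331 and 526 cells. Lyz2 (1.45, edgeR adjusted p = 0.000502) and Ifitm3 (1.36, edgeR adjusted p = 0.0486) kept their calls. Gatm (2.52, edgeR adjusted p = 0.0997), Ctsl (0.85), C1qb (0.69) and Tyrobp (0.78) did not. The 3 genes lower in ADAM kept their calls as well. These were Slc28a2 (-1.93, edgeR adjusted p = 0.0253), Eif3j1 (-1.43, edgeR adjusted p = 0.034) and Apobec2 (-3.26, edgeR adjusted p = 0.0253). With more than 5 such UMIs as the limit, only 16 cells of ADAM 1 were left. Gatm and Apobec2 could not be tested there, and none of the other 7 genes was called. The estimates were then 1.39 for Lyz2, 0.91 for Tyrobp, 0.50 for Ctsl, 0.40 for Ifitm3, 0.33 for C1qb, -2.96 for Slc28a2 and -1.31 for Eif3j1. Monocyte and macrophage markers, Lyz2 being one of them, summed to 650 and 454 CPM in the CD8 T cells of AD and to 889 and 831 in ADAM, against 232 to 383 in CD4 T cells. Ly6c2, which the CD8 T cells express, held 414, 294, 602 and 541 of these. Without Lyz2 and Ly6c2 the other 5 summed to 193 and 120 in AD and to 163 and 180 in ADAM, and the genotypes overlapped. The part of microglia and monocyte RNA in the 6 differences was not tested.

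The 3 genes lower in ADAM were Slc28a2, Eif3j1 and Apobec2. Slc28a2, a sodium-coupled nucleoside transporter, was at 31.5 and 21.4 CPM in AD and 5.77 and 6.90 in ADAM, a log2 difference of -2.02 (adjusted p from edgeR 0.0447, SE 0.31). In microglia it was at 0.583, 0.046, 0.136 and 0.231, below its level in the CD8 T cells of every library. Eif3j1, a subunit of translation initiation factor 3, was at 107 and 72.9 in AD and 24.7 and 35.9 in ADAM, a difference of -1.54 (adjusted p from edgeR 0.0447, SE 0.23), and in microglia at 124, 110, 24.0 and 30.5. Its near-identical copy Eif3j2 ran the other way in CD8 T cells, at 0.477, 4.14, 23.1 and 48.8 (estimate 3.84, SE 0.60, edgeR adjusted p = 0.109). Reads may be split between the copies: their sum was 107 and 77.1 in AD and 47.8 and 84.7 in ADAM, and there the genotypes overlapped. In microglia the sum was 127 and 111 in AD and 59.9 and 73.7 in ADAM, and in CD4 T cells it was 98.7 and 71.2 against 26.7 and 49.7, without overlap in either. Apobec2 (-2.91, SE 0.44, edgeR adjusted p = 0.0447), named after its values were seen, rested on 24, 40, 3 and 4 UMIs. Its call was lost with DESeq2, with limma-voom, with at least 2 CD8 UMIs per cell, with the replicate number as a block, and without AD 2, ADAM 1 or ADAM 2. Calls for Slc28a2 and Eif3j1 were lost without ADAM 1, without ADAM 2, with limma-voom and with the replicate number as a block, and that for Ifitm3 without either ADAM library. The call for Ctsl was lost without ADAM 1, with limma-voom and with the block, and that for Tyrobp without ADAM 2 and with limma-voom. Of the 9 genes, only Lyz2 kept its call with limma-voom, so those for Gatm, C1qb and Ifitm3 were lost there too. With at least 2 CD8 UMIs per cell, only Lyz2 and Gatm kept theirs.

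Gatm (chr2:122594467-122611303), Slc28a2 (chr2:122426477-122461137) and Eif3j1 (chr2:122028546-122056598, all GRCm38.p6) lie within 6.09 to 6.64 Mb of Mertk, a position looked at after the values were seen. Within 10 Mb of Mertk 3 of 122 tested genes were called (2.46%), and within 10 Mb of Axl 1 of 166, which was Tyrobp (0.602%), against 9 of 8864 genes with a position (0.102%). Alleles that travel with a targeted gene and effects of its loss cannot be told apart in these groups.

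**Figure D5:**
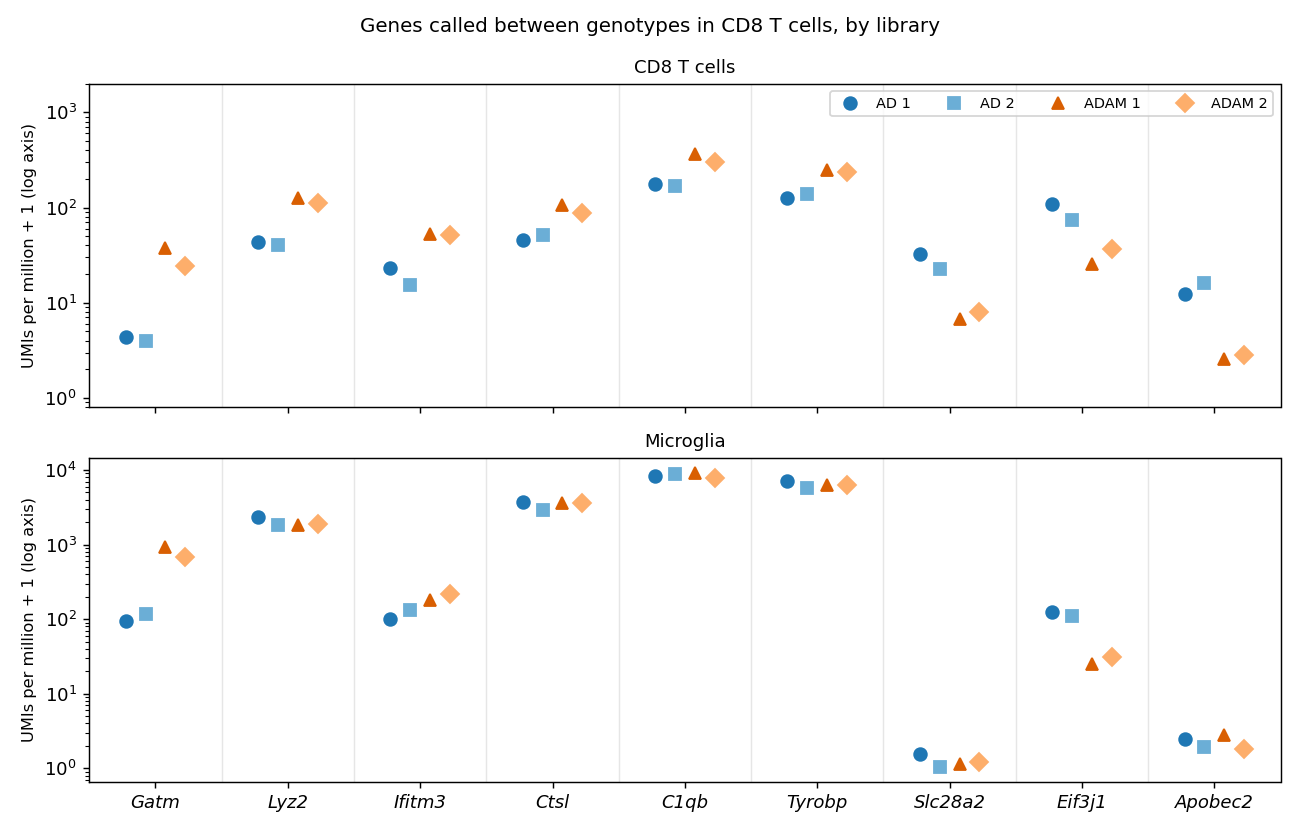
The 9 genes called between genotypes in CD8 T cells, in CPM plus 1 on a log axis, in CD8 T cells (top) and microglia (bottom) of each library. Gatm and Eif3j1 separate the genotypes in both cell types, Lyz2, C1qb and Tyrobp separate them in the CD8 T cells but overlap in microglia, and Slc28a2 and Apobec2 are near 0 in microglia.

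The TAM genes themselves were close to background in the CD8 T cells. Axl was at 2.86 and 4.89 CPM in AD and 2.10 and 1.84 in ADAM, against 104 and 67.1 and then 5.37 and 7.23 in microglia. Mertk was at 3.34, 4.89, 8.40 and 11.5, and in microglia it was at 246 to 296 in both genotypes, so the level of Mertk does not check this label. Tyro3 was at 0 to 2.62. Of the ligands, Pros1 was at 5.98 to 8.65 and Gas6 at 5.26 to 10.6. The 3 of these genes with enough counts to test in CD8 T cells (Mertk, Gas6 and Pros1) did not pass.

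Whether the genotypes differed alike in CD8 and CD4 T cells was tested with an interaction term. It passed for 20 of 8726 genes (0.229%), 17 with a higher (0.195%) and 3 with a lower (0.0344%) estimate in CD8 T cells. The CD4 T cells of ADAM behind it numbered 33 and 16, and the median estimate over all tested genes was 0.157 with TMM and 0.055 with RLE scaling. In CD8 T cells most of these genes were at like levels in both genotypes. Lgals1, which encodes galectin 1, was at 457, 476, 447 and 445 CPM in the CD8 T cells, and S100a10 at 897, 870, 935 and 764. Of the 20, Ifitm3 alone also passed the genotype test within the CD8 T cells.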

How the data were processed

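Single-cell 3′ RNA libraries (10x chemistry) were counted with Cell Ranger 3.1.0 on mm10 and handled with Seurat 3.2.1.9002, per the submitters' processing notes. The deposited table holds raw UMI counts for 16798 genes and 15451 cells, made by the authors. The cell table holds a class per cell and the percent of mitochondrial UMIs, as the authors deposited it. No deposited cell had fewer than 500 UMIs or more than 9.99% mitochondrial UMIs, and 823 cells marked by the authors as doublets carry no class and were not used as members.

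Members were chosen by the gene rule from the deposited class, with no clustering. The members, gene lists and tests were chosen with earlier results of these data known. UMIs were summed per library and cell type. edgeR 4.0.16 (quasi-likelihood, robust, TMM, expression filter with a minimum count of 10, Benjamini-Hochberg at 0.05, R 4.3.3) was fitted on all genes that passed the filter, with genotype alone for the genotype comparison and with library as a term for CD8 against CD4 or NK cells. CD4 and NK cells of a library come from the same pools as its CD8 T cells. Genes of the cell rules stayed in the fits and in the counts over all genes, and no result is drawn from them. Levels are CPM of the summed UMIs, without TMM. Shares of cells used cells thinned to 1500 UMIs, or 1000 as an alternative, and exact permutation tests over libraries (scipy 1.17.1). Other settings were DESeq2 1.42.0, limma 3.58.1 (voom), RLE scaling, no filter, 2 CD8 UMIs, limits on microglia UMIs, and each library left out. Each fit was afterwards repeated on counts simulated from it, with 200 genes changed. Genes changed by a log2 of 1 were recovered at 78% for genotype, 45% against CD4, 15% against NK and 3% for the interaction. At a log2 of 2 the shares were 98%, 88%, 68% and 24%. False calls numbered 12, 4, 1 and 0. The changed genes left out the lowest expressed, and the simulated spread followed a trend over all genes and not each gene's own value. The recovered shares therefore do not hold for every gene.

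Named genes were those of the rule, of the lists and of the 10 most abundant, and the called genes with the largest fold and a mean log2 CPM of at least 4 that had the same sign in every library. Some genes of the lists are not reported here. In each library the 5 most frequent V genes could be named. Libraries of 1 genotype differed by more than independent counting of UMIs gives (chi-square per degree of freedom 4.78 in AD and 4.09 in ADAM). Clumping of UMIs within cells also raises these values, so they do not measure the spread between pools. Each library counted as a replicate because it was a separate pool. Gene positions and promoters are from GRCm38.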

Additional observations from a re-analysis of the deposited data

Results flagged for a closer look

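The genotype effect differed between CD8 and CD4 T cells, by the interaction term of edgeR at an adjusted p below 0.05, for 20 genes. Values are the log2 effect of ADAM over AD in CD8 T cells minus that in CD4 T cells. Higher estimates were found for Runx2 (9.70), Ifitm2 (7.10), Ifitm1 (6.70), Anxa1 (3.87), Ifitm3 (3.27), Lgals3 (3.04), Ccl4 (2.58), Klrd1 (1.87), Cst7 (1.74), Klf2 (1.66), H2-Q6 (1.585), S100a6 (1.39), Lgals1 (1.34), S100a10 (1.285), Nkg7 (1.05), Ccl5 (1.04) and Crip1 (0.92). Lower estimates were found for Ctla2a (-1.59), Ikzf2 (-2.61) and Mgst2 (-8.88).

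For several of these genes the libraries lay further apart in CD4 than in CD8 T cells. Ifitm2 was at 1026 and 264 CPM in the CD4 T cells of AD and at 35.6 and 16.6 in ADAM, and Ifitm1 at 977 and 458 against 0 and 16.6. Lgals3 was at 928 and 224 against 89.0 and 82.9. The CD8 T cells were uneven too in Ifitm2, at 8.585, 4.135, 13.6 and 83.8 with ADAM 2 highest, and in Ifitm1, at 16.7, 1.13, 1.57 and 15.2. Klf2 was at 951 and 793 in the CD4 T cells of AD and 374 and 166 in ADAM. Runx2 had 34 and 9 UMIs in the CD4 T cells of AD and none in ADAM, and Mgst2 had none in AD, so their estimates are not bounds on a fold. Ikzf2 was highest in the CD8 T cells of AD 1, at 82.5 against 15.04 to 20.3 in the other libraries. In all these genes the ADAM values in CD4 T cells rest on 33 and 16 cells.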

How the results depend on the processing

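Counts of called genes depended on the setting, and the cause was not tested. Between genotypes 9 genes passed. The count was 84 with no filter on low counts, 1 with limma-voom, 2 with at least 2 CD8 UMIs per cell and 1 without cells of more than 5 microglia marker UMIs. It was 9 with RLE scaling, 10 with DESeq2 and 7 at the limit of 15 microglia UMIs. With 1 library left out it ran from 9 (without ADAM 2) to 46 (without AD 1). CD8 against CD4 T cells gave 236 genes, against 50 with DESeq2, 82 with limma-voom and 97 (without AD 1) to 210 (without ADAM 1). CD8 against NK cells gave 340 genes, against 186 with DESeq2, 183 with limma-voom and 225 (without AD 1) to 315 (without ADAM 2). The interaction gave 20 genes, against 2 with DESeq2 and 9 (without AD 1) to 23 (without AD 2). The limit of 5 microglia UMIs was not run for the last 3 comparisons.

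In the genotype comparison the replicate number as a block gave 6 calls, 5 of them among the 9. Libraries with the same number shared only that number (correlation of their deviations 0.041). Without library as a block, CD8 against CD4 gave 142 calls.

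The ADAM minus AD difference in the CD8 share of T and NK cells ran from -7.538 (without AD 1) to 12.846 (without AD 2) percentage points, and was -3.207 over all cells with a class. Shares of cells with a UMI differed, in percentage points, by -0.138 for Gzmb, -0.128 for Ifng, -1.211 for Ccl4 and -1.006 for Isg15 at 1000 UMIs, and by -0.27 for Ifng and 3.428 for Xcl1 without thinning. Log2 differences that changed sign when ADAM 1 or ADAM 2 was left out were -0.01 to 0.311 for Cxcr6 (CD8 against CD4), and, between genotypes, -0.409 to 0.002 for Pros1, -0.175 to 2.085 for Gzmm and -2.001 to 0.216 for Gzma. Of the 354 values of 36 named genes against CD4 T cells, 280 kept direction and side of the threshold and 73 lost it. All 160 values of 16 genes against NK cells kept both. Of the 180 interaction values, 113 did, and of the 151 genotype values of 13 genes, 104 did.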

Other observations

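Cma1, which encodes a mast cell protease, was at 38.3 CPM in the CD8 T cells of AD 2 and at 0 in those of the other libraries. In NK cells it was at 175 and 1132 CPM in AD 1 and AD 2 and at 76.3 and 0 CPM in the ADAM libraries, so AD 2 was highest in both cell types. MHC class I genes were abundant in the CD8 T cells themselves: H2-K1 stood at 3023 ± 215 and H2-D1 at 3013 ± 240 CPM (mean ± SD, n = 4 libraries), against 738 to 1025 and 1421 to 1870 in microglia. B2m of the same list averaged 2985 CPM in CD8 T cells and 3159 in microglia. In CD4 T cells H2-K1 and H2-D1 averaged 3369 and 3480 CPM. Of the 15 MHC class I genes tested, none passed between genotypes or between CD8 and CD4 T cells (0.101% and 3.1% of all tested genes). Against NK cells, 4 were higher (3.6% of all tested genes). Survival genes were led by Bcl2, at 1049 to 1236 CPM, which was higher than in CD4 T cells with a log2 difference of 0.47 (adjusted p from edgeR 0.00412, SE 0.12). The call did not hold when AD 1, AD 2 or ADAM 2 was left out.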
